A study of Mus musculus with 6 samples.

Results

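Circular RNAs (circRNAs) from 8 genes of the muscle Z-disc and the dystrophin complex were described in mouse aorta. The genes were Pdlim5, Pdlim3, Pdlim7, Ldb3, Dmd, Utrn, Sgcd and Dtna, and every circRNA whose deposited host symbol was one of these 8 was taken. That gave 97 of the 20532 circRNAs listed in the 6 libraries, from 8 of 7051 host symbols. The set was chosen by function with the junction reads of Pdlim5 and Dmd circRNAs in high-fat and ApoE-/- chow libraries already seen. For those 2 genes the diet comparison is therefore given as values without a test. Their tests of high-fat against C57BL/6J chow reuse the same high-fat reads and are not independent of the choice. All 97 circRNAs lie inside the RefSeq bounds of their host gene on GRCm38.p6.

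Aortas came from 3 groups, each with 2 libraries. The ApoE-/- high-fat mice, labelled AS, began the high-fat diet at 3 months of age and stayed on it for 3 months. The ApoE-/- chow mice, labelled control, share the loss of apolipoprotein E and ate chow. The C57BL/6J chow mice are wild type and also ate chow. The strain is given as C57BL/6 for all 3 groups. No age was given for either chow group. Mice without apolipoprotein E clear lipoproteins slowly and develop plaques, on chow more slowly than on a high-fat diet. The labels do not tie the 2 libraries of a group to different animals. A p-value here therefore weighs a difference only against the spread among these libraries, which may be technical.

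The Z-disc anchors actin filaments of neighbouring sarcomeres through alpha-actinin, and smooth muscle has dense bodies in the same role. Enigma and ALP proteins carry a PDZ domain that binds alpha-actinin and LIM domains that bind signalling proteins. The dystrophin complex links cortical actin to laminin in the matrix. Dystrophin or its relative utrophin binds actin inside the cell, sarcoglycans and dystroglycan cross the membrane, and dystrobrevin and syntrophins form its cytoplasmic part. Loss of dystrophin or of a sarcoglycan causes muscular dystrophy, and vascular smooth muscle also uses the complex.

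A circRNA arises when a splice donor is joined back to an acceptor upstream of it. Reads across that join (junction reads) are its direct evidence. The deposited count of a circRNA also takes in other reads inside its interval, and count minus junction (interval reads) mixes circular RNA with linear transcripts and introns of the same stretch. It is not a measure of the whole gene's expression, and without a strand setting it can include an antisense neighbour. In bulk tissue, fewer cells of a type and less RNA per cell cannot be told apart.

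Libraries held 69130844 to 77352690 reads, but the junction reads over all circRNAs differed more. They numbered 34805 and 16511 in ApoE-/- high-fat, 14575 and 14519 in ApoE-/- chow, and 26605 and 3706 in C57BL/6J chow libraries. The library C57BL/6J chow 2 stood apart: besides having the fewest junction reads, it took 41.3% of its interval reads from circRNAs spanning under 1 kb, against 58.2% to 77.8% in the other 5 libraries. For the library ApoE-/- chow 1, the deposited column names point to a C57BL/6J sample instead, the 1 conflict of this kind in 6 libraries. Its label was kept, and values without either library are given where they matter. Of 10 smooth muscle markers 8 were listed as circRNA hosts, with summed interval reads of 145 and 191 RPM in ApoE-/- high-fat, 165 and 126 RPM in ApoE-/- chow, and 191 and 48.1 RPM in C57BL/6J chow libraries. Of 20 striated muscle markers 4 were listed (Myh2, Ryr2, Ryr1 and Myh6), with sums of 28.6 and 19.2 RPM in ApoE-/- high-fat, 26.5 and 31.0 RPM in ApoE-/- chow, and 18.0 and 32.6 RPM in C57BL/6J chow libraries. Acta1, Ckm, Ttn and the other 13 were not listed, which says only that no circRNA of them was called. The part of either cell type in the members' values was not tested.

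The 97 circRNAs held 1326 junction reads, and 93.6% of these belonged to Pdlim5, Utrn and Dmd. Member junction reads numbered 331 and 195 in ApoE-/- high-fat, 174 and 177 in ApoE-/- chow, and 421 and 28 in C57BL/6J chow libraries. Per 100000 junction reads of the library, these were 951 and 1181 in high-fat, against 1194 and 1219 in ApoE-/- chow and 1582 and 756 in C57BL/6J chow. The high-fat libraries lay below both ApoE-/- chow libraries by this scale and between the C57BL/6J chow libraries. On the scale of all library reads the order changed: 4.33 and 2.55 RPM in ApoE-/- high-fat stood above 2.25 and 2.35 RPM in ApoE-/- chow, with 5.86 and 0.405 RPM in C57BL/6J chow. The ratio of group means, ApoE-/- high-fat over ApoE-/- chow, was 0.884 by the first scale and 1.50 by the second. Both include Pdlim5 and Dmd, whose values in these groups were seen at the choice, so neither is independent of it. By the first scale Utrn, with the most reads of the other members, had 374 and 333 in high-fat against 233 and 269 in ApoE-/- chow. Sgcd and Dtna overlapped between these groups.

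Most of these isoforms were seen in 1 library. Of the 97, 68 had junction reads in a single library (70.1%, against 80.5% of the other 20435 circRNAs), and 23 rested on a single read. Only the leading circRNAs of Pdlim5 and Utrn had junction reads in all 6 libraries. High-fat libraries alone held 41 of the circRNAs (42.3%, against 41.8% of the others), ApoE-/- chow libraries alone 17 (17.5%, against 19.9%) and C57BL/6J chow libraries alone 12 (12.4%, against 20.8%). The high-fat group also had the most junction reads over all circRNAs. Member circRNAs were long: the median span on the genome was 10042 bp, against 1810 bp for the others, and 33 of them (34.0%, against 9.95%) spanned 20 kb or more. Spans were not matched for gene length: Dmd is 2390387 bp long, Sgcd 1018375 bp and Utrn 487702 bp. The others also include 2133 circRNAs without a host symbol. A start or end was shared with another circRNA of the same gene by 60 of the 97 (61.9%, against 35.0% of the 18399 circRNAs with a host symbol). These shares were not matched for the number of circRNAs per host, and a host with 1 circRNA cannot share an end. Dmd gave 32, Utrn 28 and Pdlim5 15. The 60 held 92.5% of the members' junction reads.

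**Figure D1:**
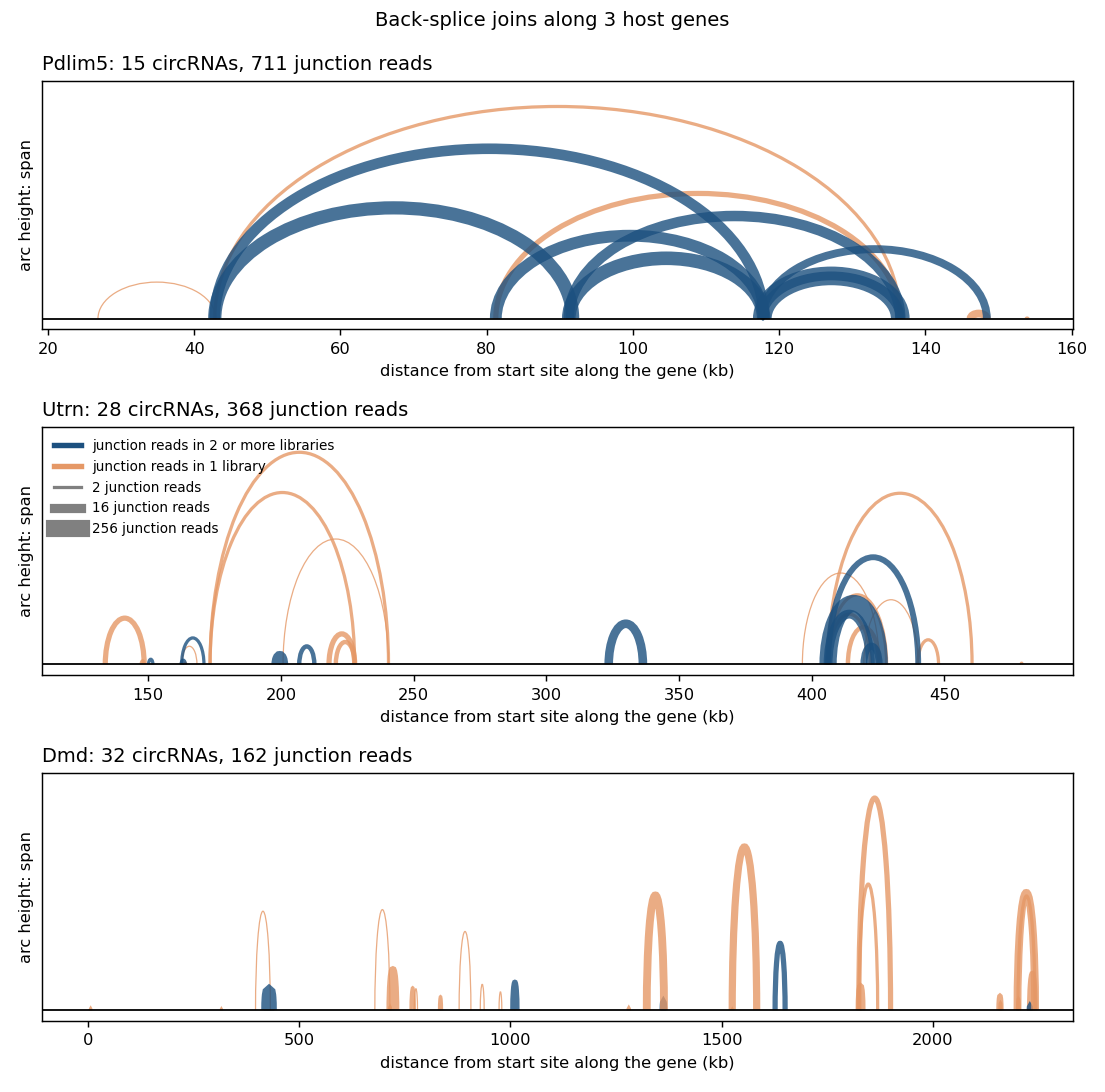
Back-splice joins of Pdlim5, Utrn and Dmd along each gene, with distance from the most upstream start site in the RefSeq promoter table on the horizontal axis (kb). Each arc joins the 2 ends of a circRNA, its height follows the span and its width the log of its junction reads; blue arcs had reads in 2 or more libraries and orange arcs in 1. The 711 reads of Pdlim5 share a few ends between 42.8 and 137 kb, most of the 368 of Utrn leave 1 cluster past 400 kb, and the 162 of Dmd are spread over the gene.

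Interval reads were recorded unevenly. Of the 54 member circRNAs that lie wholly under other listed intervals, 48 (88.9%) had no interval read, while none of the 43 others was without one. The same held over all circRNAs, with 87.9% of 5676 nested ones at 0. Interval reads of a member thus come mostly from its outermost listed intervals.

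Pdlim5 (enigma homolog, ENH) is an Enigma protein that ties protein kinase C to alpha-actinin at the Z-disc. It lies on the minus strand of chr3 (142239585-142395719) and gave 15 circRNAs with 711 junction reads, rank 6 of the 7051 hosts. Its junction reads numbered 124 and 111 in ApoE-/- high-fat, 101 and 102 in ApoE-/- chow, and 255 and 18 in C57BL/6J chow libraries. That came to 356 and 672 per 100000 in high-fat, 693 and 703 in ApoE-/- chow, and 958 and 486 in C57BL/6J chow. By this share the high-fat libraries overlapped C57BL/6J chow. Their order against ApoE-/- chow is not independent of the choice of Pdlim5, which was made with junction reads of these groups seen. After TMM scaling, with 5578 and 9946 CPM in ApoE-/- high-fat and 9759 and 10249 CPM in ApoE-/- chow, they overlapped ApoE-/- chow too.

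The leading Pdlim5 circRNA, chr3:142259130-142278001, spans 18872 bp and ranked 8 among all circRNAs. It had 73 and 64 junction reads in ApoE-/- high-fat, 79 and 57 in ApoE-/- chow, and 144 and 15 in C57BL/6J chow libraries. As a share of Pdlim5 junction reads it made up 58.9% (95% Wilson interval 50.1 to 67.1) and 57.7% (48.4 to 66.4) in high-fat, 78.2% (69.2 to 85.2) and 55.9% (46.2 to 65.1) in ApoE-/- chow, and 56.5% (50.3 to 62.4) and 83.3% (60.8 to 94.2) in C57BL/6J chow libraries. It was the main isoform in each library, and the 2 libraries of each chow group differed more than the groups. These intervals cover counting error only.

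Around it, Pdlim5 reused the same splice sites. On the minus strand the lower coordinate is the donor side of the join and the higher one the acceptor side. The donor at 142259130 was joined to 5 acceptors, which together held 477 junction reads (67.1% of Pdlim5), and the acceptor at 142278001 to 4 donors with 448 reads (63.0%). A second donor, at 142277817, was joined to 4 acceptors with 144 reads. The circRNA chr3:142277817-142304469 had 14 and 14 junction reads in ApoE-/- high-fat, 6 and 17 in ApoE-/- chow, and 23 and 0 in C57BL/6J chow libraries. The circRNA chr3:142277817-142314448 had 16 and 0 in high-fat, 4 and 0 in ApoE-/- chow, and 18 and 2 in C57BL/6J chow. The first form overlapped between groups. Scaled to depth, both ApoE-/- chow libraries lay below both C57BL/6J chow libraries for the second, as for 6.31% of the 1015 circRNAs tested, and it did not pass. The circRNA chr3:142277817-142278001, which joins that donor to the leading form's own acceptor, spans 185 bp and had 2 reads in ApoE-/- high-fat 2 and 2 in ApoE-/- chow 1.

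A neighbouring acceptor 3 bases away gave a separate listed circRNA, chr3:142259130-142277998. It had 2 and 5 junction reads in ApoE-/- high-fat, 0 and 0 in ApoE-/- chow, and 6 and 1 in C57BL/6J chow libraries. Of the 446 reads on the pair of acceptors, 14 (3.14%) used the inner one. In ApoE-/- chow, 0 of 79 and 0 of 57 reads allow shares of up to 3.80% and 5.26%. The inner acceptor took 2.67% and 7.25% in ApoE-/- high-fat and 4% and 6.25% in C57BL/6J chow libraries. The limits in ApoE-/- chow overlap these shares, so the reads do not set that group apart. By junction reads the inner form did not pass between ApoE-/- chow and C57BL/6J chow (edgeR, adjusted p = 0.899).

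The circRNA chr3:142303943-142352885 is the Pdlim5 isoform through which the gene was picked for the diet comparison. It had 0 and 0 junction reads in ApoE-/- high-fat, 0 and 19 in ApoE-/- chow, and 46 and 0 in C57BL/6J chow libraries. In both chow groups 1 library carried all reads, so the groups overlapped at 0. Its mean share of junction reads was at least 4.89-fold lower in high-fat than in ApoE-/- chow and at least 6.45-fold lower than in C57BL/6J chow, against a floor of 3 reads per library. Leaving out each library in turn, chosen after seeing the data, moved the first bound between 3.60 and 9.77 and the second between 4.76 and 12.9, and without ApoE-/- chow 2 or C57BL/6J chow 1 both groups of that comparison were at 0. The highest of each came without ApoE-/- chow 1 and without C57BL/6J chow 2. The comparison with C57BL/6J chow, which reuses the high-fat reads by which the gene was picked, did not pass (edgeR quasi-likelihood test, adjusted p = 0.413). Its acceptor at 142352885 was also used by chr3:142277817-142352885, which had 8 and 4 reads in ApoE-/- high-fat, 4 and 5 in ApoE-/- chow, and 5 and 0 in C57BL/6J chow, so this acceptor was used in high-fat libraries.

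The remaining Pdlim5 forms with reads in several libraries were small. The circRNA chr3:142259130-142304469 had 6 and 5 reads in ApoE-/- high-fat, 6 and 2 in ApoE-/- chow, and 6 and 0 in C57BL/6J chow. The circRNA chr3:142247295-142278001 had 3 and 3 in high-fat, 0 and 0 in ApoE-/- chow, and 4 and 0 in C57BL/6J chow. The same donor also formed chr3:142247295-142249510, with 10 reads in ApoE-/- high-fat 2 and none elsewhere.

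**Figure D2:**
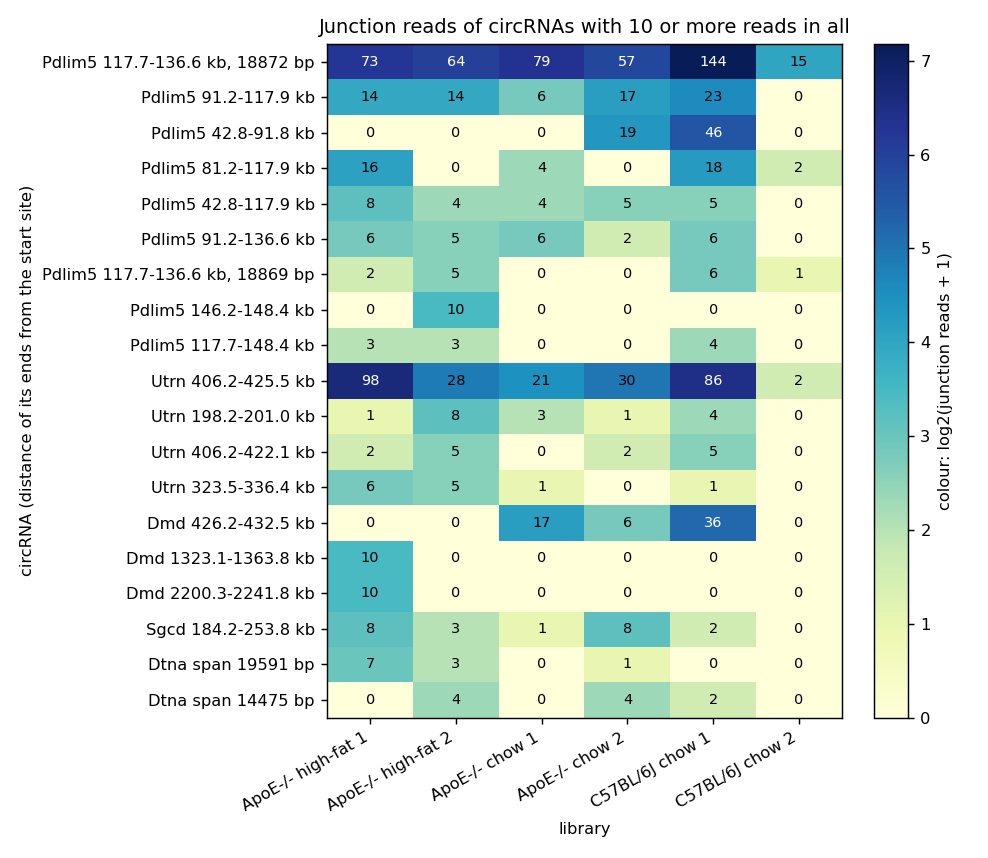
Junction reads in each of the 6 libraries (columns; high-fat, ApoE-/- chow, C57BL/6J chow from left to right) for the 19 member circRNAs with 10 or more reads in all. Rows name the host and the distance of both ends from its most upstream start site in that table (kb), or the span for Dtna; numbers are raw reads and colour is log2(reads + 1). The leading forms of Pdlim5 and Utrn run through every column, while the Dmd form at 426 kb has 17, 6 and 36 reads in 3 chow libraries and 0 in both high-fat libraries.

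Interval reads of Pdlim5 came almost wholly from another part of the gene: 84.2% (1162 of 1380) lay in chr3:142352734-142368859, whose own circRNA had 1 junction read. Pdlim5 interval reads numbered 283 and 151 in ApoE-/- high-fat, 279 and 252 in ApoE-/- chow, and 133 and 282 in C57BL/6J chow libraries. After TMM scaling these were 174 and 124 CPM in ApoE-/- high-fat, 193 and 188 CPM in ApoE-/- chow, and 126 and 232 CPM in C57BL/6J chow. High-fat libraries lay below ApoE-/- chow, as for 15.9% of the 6122 hosts, and overlapped C57BL/6J chow. The log2 difference was -0.35 from ApoE-/- chow, given without a test, and -0.26 ± 0.48 (SE) from C57BL/6J chow, where it turned to 0.25 without C57BL/6J chow 2.

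The other 3 adaptors gave hardly any junction reads. Pdlim3 (ALP), which strengthens the cross-linking of actin by alpha-actinin, had 1 circRNA with 2 reads in ApoE-/- high-fat 1 and 0 in the other libraries. Pdlim7 (enigma) had 2 circRNAs, one with 1 read in ApoE-/- chow 1 and the other with 4 in C57BL/6J chow 2. Ldb3 (ZASP, or Cypher), whose mutations cause myofibrillar myopathy, had 1 read in ApoE-/- high-fat 1. No group could be compared on counts this low.

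Interval reads of Pdlim3 numbered 109 and 115 in ApoE-/- high-fat, 111 and 113 in ApoE-/- chow, and 129 and 51 in C57BL/6J chow libraries. Those of Pdlim7 were 187 and 304 in high-fat, 248 and 172 in ApoE-/- chow, and 337 and 73 in C57BL/6J chow. Both genes overlapped between all groups, with C57BL/6J chow libraries at the top and the bottom of each range. Ldb3 had 6 and 7 interval reads in ApoE-/- high-fat, 5 and 0 in ApoE-/- chow, and 1 and 10 in C57BL/6J chow, and stayed under the minimum of 10 reads in 2 libraries, so it was not tested. Pdlim3 differed by 0.00 ± 0.51 in log2 between high-fat and ApoE-/- chow, and Pdlim7 by 0.28 ± 0.59. Against C57BL/6J chow, high-fat Pdlim7 differed by -0.06 ± 0.59, and this rested on single libraries: it was 1.57 (adjusted p = 0.0514, edgeR) without C57BL/6J chow 1 and -0.82 without C57BL/6J chow 2.

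Dmd encodes dystrophin, the actin-binding rod at the core of the complex. It lies on the plus strand of chrX (82814664-85205050) and gave 32 circRNAs, rank 7 of the hosts by number, but only 162 junction reads, rank 96. These numbered 46 and 16 in ApoE-/- high-fat, 35 and 15 in ApoE-/- chow, and 49 and 1 in C57BL/6J chow libraries. Per 100000 that was 132 and 96.9 in high-fat, 240 and 103 in ApoE-/- chow, and 184 and 27.0 in C57BL/6J chow. Values of the 3 groups overlapped. Of the 32 circRNAs, 27 were seen in a single library.

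The leading Dmd circRNA, chrX:83375059-83381357, spans 6299 bp and carried 59 of the 162 reads (36.4%). It had 0 and 0 junction reads in ApoE-/- high-fat, 17 and 6 in ApoE-/- chow, and 36 and 0 in C57BL/6J chow libraries. Dmd was picked with the high-fat and ApoE-/- chow reads of this circRNA seen, so their order is not a result. The circRNA was also at 0 in C57BL/6J chow 2, in which Dmd had a single junction read in all. Its share of junction reads was at least 5.90-fold lower in high-fat than in ApoE-/- chow and at least 5.05-fold lower than in C57BL/6J chow; the first of these is the value by which Dmd was picked. The first bound was 3.09-fold without ApoE-/- chow 1 and 9.16-fold without high-fat 2, its lowest and highest on leaving out each library in turn. The second ran from 3.72-fold without high-fat 1 to 10.1-fold without C57BL/6J chow 2. Against C57BL/6J chow it did not pass with all libraries (edgeR, adjusted p = 0.6). That test reuses the high-fat reads by which Dmd was picked, so it is not independent of the choice. The log2 difference was -7.84 without C57BL/6J chow 2, which leaves 1 library in that group, and without C57BL/6J chow 1 both groups were at 0. Other Dmd circRNAs were found in high-fat libraries, which had 46 and 16 Dmd junction reads from 14 and 3 circRNAs.

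Those other forms appeared mostly in a single library each. The circRNAs chrX:84271952-84312626 and chrX:85149130-85190702 each had 10 reads in ApoE-/- high-fat 1 and 0 elsewhere, and chrX:84474134-84531991 had 8 in ApoE-/- high-fat 2. The shorter chrX:84309799-84312626 shares the end of the first of these and had 0 and 0 reads in ApoE-/- high-fat, 4 and 0 in ApoE-/- chow, and 1 and 1 in C57BL/6J chow. Near the 3' end, 3 circRNAs shared the end at 85190702 with 16 reads in total.

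Dmd is transcribed from several promoters, and the circRNAs were set against 2 of its start sites. The RefSeq promoter table held the 250 bases before the start sites at chrX 82948870 and 85048295 (GRCm38.p6, plus strand). Of the 32 circRNAs, 25 with 133 junction reads lay between these sites, 7 with 29 reads lay after the downstream one and 0 before the upstream one. The first stretch is 2099425 bp and the second, up to the gene's end, 156756 bp. After the downstream site, junction reads numbered 13 and 0 in ApoE-/- high-fat, 2 and 8 in ApoE-/- chow, and 6 and 0 in C57BL/6J chow, overlapping in all groups. Both windows are shown because they differ in the CArG box, the site bound by serum response factor in muscle promoters; capitals mark its match.

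Dmd upstream start, chrX:82948620-82948869: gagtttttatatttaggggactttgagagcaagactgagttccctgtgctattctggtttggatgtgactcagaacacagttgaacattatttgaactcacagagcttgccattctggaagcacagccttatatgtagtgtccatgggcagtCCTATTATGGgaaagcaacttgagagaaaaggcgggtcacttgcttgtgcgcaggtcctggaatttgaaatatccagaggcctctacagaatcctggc

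Dmd downstream start, chrX:85048045-85048294: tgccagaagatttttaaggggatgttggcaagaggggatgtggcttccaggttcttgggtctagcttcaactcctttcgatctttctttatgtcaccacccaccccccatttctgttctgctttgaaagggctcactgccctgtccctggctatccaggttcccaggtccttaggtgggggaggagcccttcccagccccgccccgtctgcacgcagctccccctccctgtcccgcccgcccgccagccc

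The upstream window held a CArG box that begins 98 bases before the start site (-98) and was 45.2% G or C. The downstream window held no match and was 60% G or C, against a median of 52.4% over all windows. Both strands were searched, and 482 of 32851 promoter windows (1.47%) held a match. Among the 10 windows of 7 members (Dtna had no window), the other matches were in both Ldb3 windows, at -35 and -109, which overlap and share 1 match. A match describes letters in the window and not binding.

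Interval reads of Dmd numbered 326 and 325 in ApoE-/- high-fat, 575 and 180 in ApoE-/- chow, and 322 and 184 in C57BL/6J chow libraries. In CPM these were 201 and 266 in high-fat, 397 and 134 in ApoE-/- chow, and 305 and 151 in C57BL/6J chow. The high-fat values lay inside the range of each chow group. High-fat differed from ApoE-/- chow by a log2 of -0.19, given without a test, and from C57BL/6J chow by 0.03 ± 0.52. ApoE-/- chow differed from C57BL/6J chow by 0.22 ± 0.52, which became -0.76 without ApoE-/- chow 1, the library with the conflicting column names, and -0.18 without C57BL/6J chow 2.

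Utrn encodes utrophin, the dystrophin relative that binds the same partners and is common in vessels. On the minus strand of chr10 (12382187-12869888) it gave 28 circRNAs with 368 junction reads, rank 21 of the hosts. The reads numbered 130 and 55 in ApoE-/- high-fat, 34 and 39 in ApoE-/- chow, and 105 and 5 in C57BL/6J chow libraries. Per 100000 junction reads this was 374 and 333 in high-fat, 233 and 269 in ApoE-/- chow, and 395 and 135 in C57BL/6J chow. Both high-fat libraries lay above both ApoE-/- chow libraries, a pattern that 22.7% of the 1262 hosts tested by junction reads shared, and within the range of C57BL/6J chow.

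The leading Utrn circRNA, chr10:12436281-12455564, spans 19284 bp and carried 265 reads (72.0%), rank 24 of all circRNAs. It had 98 and 28 junction reads in ApoE-/- high-fat, 21 and 30 in ApoE-/- chow, and 86 and 2 in C57BL/6J chow libraries. The 2 libraries differed several fold within high-fat and within C57BL/6J chow, and all groups overlapped. Its acceptor at 12455564 was shared by 5 circRNAs with 288 reads (78.3% of Utrn), and its donor at 12436281 by 4 with 276 (75%). From that acceptor, chr10:12439627-12455564 had 2 and 5 reads in ApoE-/- high-fat, 0 and 2 in ApoE-/- chow, and 5 and 0 in C57BL/6J chow, again overlapping. Others that shared an end were chr10:12436281-12442093, with 2 reads in ApoE-/- chow 2 and 5 in C57BL/6J chow 1, and chr10:12421597-12455564, with 2 in ApoE-/- high-fat 1, 2 in C57BL/6J chow 1 and 1 in C57BL/6J chow 2.

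Further upstream in Utrn, 2 forms with 10 or more junction reads shared no end with another circRNA. The circRNA chr10:12525338-12538213 had 6 and 5 junction reads in ApoE-/- high-fat, 1 and 0 in ApoE-/- chow, and 1 and 0 in C57BL/6J chow libraries. Both high-fat libraries lay above ApoE-/- chow and above C57BL/6J chow, but the form did not pass against either chow group (edgeR, adjusted p = 1 in both). Per 100000 junction reads it had 17.2 and 30.3 in high-fat. The floor of 3 reads came to 20.6 in ApoE-/- chow, and 1 read in C57BL/6J chow 2 to 27.0, so the chow libraries could hardly show a lower level. Among the 1015 circRNAs tested, 22.3% had both high-fat libraries above ApoE-/- chow and 24.2% above C57BL/6J chow. The circRNA chr10:12660779-12663538 had 1 and 8 in high-fat, 3 and 1 in ApoE-/- chow, and 4 and 0 in C57BL/6J chow, and overlapped.

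Interval reads of Utrn numbered 397 and 334 in ApoE-/- high-fat, 374 and 287 in ApoE-/- chow, and 197 and 216 in C57BL/6J chow libraries. Scaled to CPM, they were 245 and 273 in high-fat, 258 and 214 in ApoE-/- chow, and 187 and 177 in C57BL/6J chow. Both ApoE-/- groups lay above both C57BL/6J chow libraries, as for 13.8% of the 6122 hosts in high-fat and 12.3% in ApoE-/- chow. The log2 difference was 0.51 ± 0.46 for high-fat and 0.37 ± 0.46 for ApoE-/- chow against C57BL/6J chow, and 0.13 ± 0.46 for high-fat against ApoE-/- chow. Each kept its sign when any 1 library was left out, and none passed.

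Sgcd encodes delta-sarcoglycan, a membrane protein of the complex that smooth muscle shares with striated muscle. It lies on chr11 (46971077-47989451, minus strand) and gave 5 circRNAs with 30 junction reads. These numbered 15 and 3 in ApoE-/- high-fat, 1 and 8 in ApoE-/- chow, and 3 and 0 in C57BL/6J chow libraries. Its leading form, chr11:47125535-47195132, spans 69598 bp and had 8 and 3 reads in ApoE-/- high-fat, 1 and 8 in ApoE-/- chow, and 2 and 0 in C57BL/6J chow. High-fat libraries lay above C57BL/6J chow, as for 24.2% of the circRNAs tested, and overlapped ApoE-/- chow. Of the other forms, chr11:47125535-47132685 shares its donor, with 2 reads in ApoE-/- high-fat 1.

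Sgcd interval reads numbered 153 and 95 in ApoE-/- high-fat, 142 and 77 in ApoE-/- chow, and 83 and 88 in C57BL/6J chow libraries. As CPM they came to 94.2 and 77.8 in high-fat, 98.1 and 57.5 in ApoE-/- chow, and 78.7 and 72.3 in C57BL/6J chow. All groups overlapped. The log2 difference was 0.15 ± 0.47 for high-fat against ApoE-/- chow, 0.19 ± 0.47 for high-fat against C57BL/6J chow and 0.04 ± 0.47 for ApoE-/- chow against C57BL/6J chow. Without ApoE-/- chow 1, high-fat differed by 0.58 from the other ApoE-/- chow library, and that library by -0.39 from C57BL/6J chow.

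Dtna encodes alpha-dystrobrevin, which binds dystrophin and syntrophins on the inner face of the membrane. It gave 13 circRNAs with 47 junction reads: 13 and 10 in ApoE-/- high-fat, 2 and 13 in ApoE-/- chow, and 9 and 0 in C57BL/6J chow libraries. One end was shared by 4 of the circRNAs with 23 reads. Of these, the leading form of 19591 bp had 7 and 3 reads in ApoE-/- high-fat, 0 and 1 in ApoE-/- chow, and 0 and 0 in C57BL/6J chow libraries. It was highest in both high-fat libraries, with too few reads to test. Of the 1015 circRNAs with enough reads, 22.3% had both high-fat libraries above ApoE-/- chow and 24.2% above C57BL/6J chow. A second form of 14475 bp from that end had 0 and 4 in high-fat, 0 and 4 in ApoE-/- chow, and 2 and 0 in C57BL/6J chow, and overlapped. Another form, spanning 34614 bp, had 2 and 1 in high-fat, 0 and 4 in ApoE-/- chow, and 2 and 0 in C57BL/6J chow. No Dtna circRNA reached the minimum of 5 reads in 2 libraries, so none was tested.

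Dtna interval reads numbered 166 and 140 in ApoE-/- high-fat, 187 and 178 in ApoE-/- chow, and 81 and 97 in C57BL/6J chow libraries. The CPM values were 102 and 115 in high-fat, 129 and 133 in ApoE-/- chow, and 76.8 and 79.7 in C57BL/6J chow. The 3 groups did not overlap: ApoE-/- chow lay highest, high-fat next and C57BL/6J chow lowest. Over the 6122 hosts, 15.9% had high-fat below ApoE-/- chow without overlap. High-fat lay above C57BL/6J chow in 13.8% and ApoE-/- chow above C57BL/6J chow in 12.3%. The log2 difference was -0.27 ± 0.46 for high-fat against ApoE-/- chow, 0.47 ± 0.47 for high-fat against C57BL/6J chow and 0.74 ± 0.47 for ApoE-/- chow against C57BL/6J chow. Leaving out any 1 library kept these between -0.36 and -0.23, 0.39 and 0.52, and 0.70 and 0.79. None of the 3 passed.

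**Figure D3:**
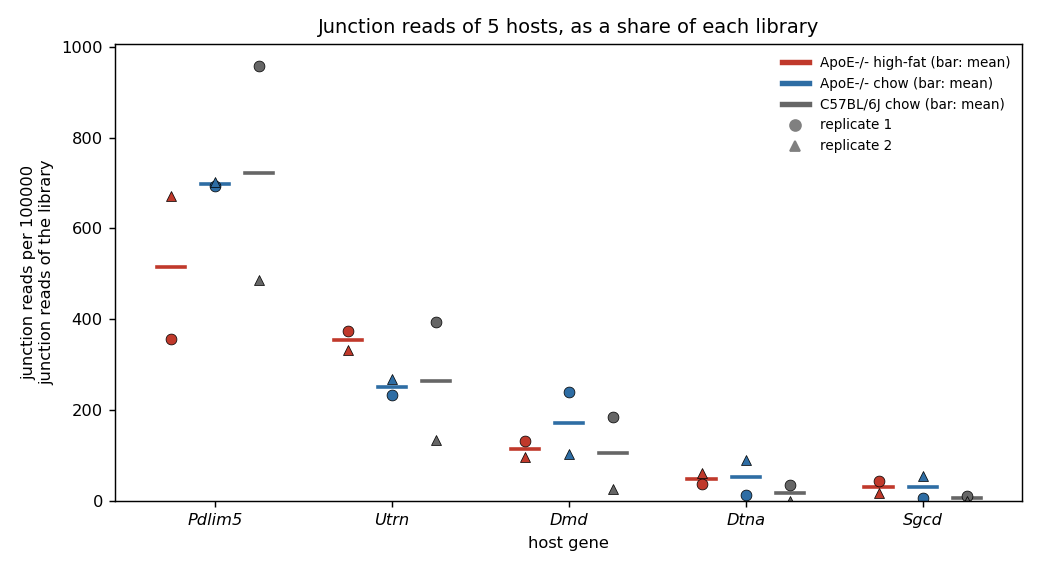
Junction reads of Pdlim5, Utrn, Dmd, Dtna and Sgcd per 100000 junction reads of the library, with 1 point per library and a bar at the mean of the 2 libraries. Within each gene, high-fat (red) stands left, then ApoE-/- chow (blue) and C57BL/6J chow (grey). The C57BL/6J chow points lie far apart, at 958 and 486 for Pdlim5 and 395 and 135 for Utrn.

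No member passed an adjusted p of 0.05 in any comparison with all 6 libraries. By interval reads, 0 of 5 members tested passed between high-fat and ApoE-/- chow, where 0% of the 6122 hosts did (0, edgeR). Against C57BL/6J chow, 0 of 7 passed in high-fat (0.0163% of hosts) and 0 of 7 in ApoE-/- chow (0% of hosts). Against both chow groups together, 0 of 5 passed for high-fat (0.049% of hosts). None of these members had an unadjusted p under 0.05, and DESeq2 also called 0. The members' adjusted p-values lay at 0.999 to 1 in the edgeR fits of the 3 pairs of groups.

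Across the 5 tested members not used in the choice, the median log2 difference was 0.13 for high-fat against ApoE-/- chow (0.03 over all hosts). Across all 7 tested members it was 0.03 for high-fat against C57BL/6J chow (-0.02) and 0.09 for ApoE-/- chow against C57BL/6J chow (-0.02). Members whose libraries did not overlap numbered 2 of 7 above C57BL/6J chow in high-fat (Utrn and Dtna, against 13.8% of hosts) and the same 2 genes of 7 in ApoE-/- chow (12.3% of hosts). These comparisons share the C57BL/6J chow libraries. Below ApoE-/- chow, high-fat had 1 of the 5 members not used in the choice (Dtna), against 15.9% of hosts.

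**Figure D4:**
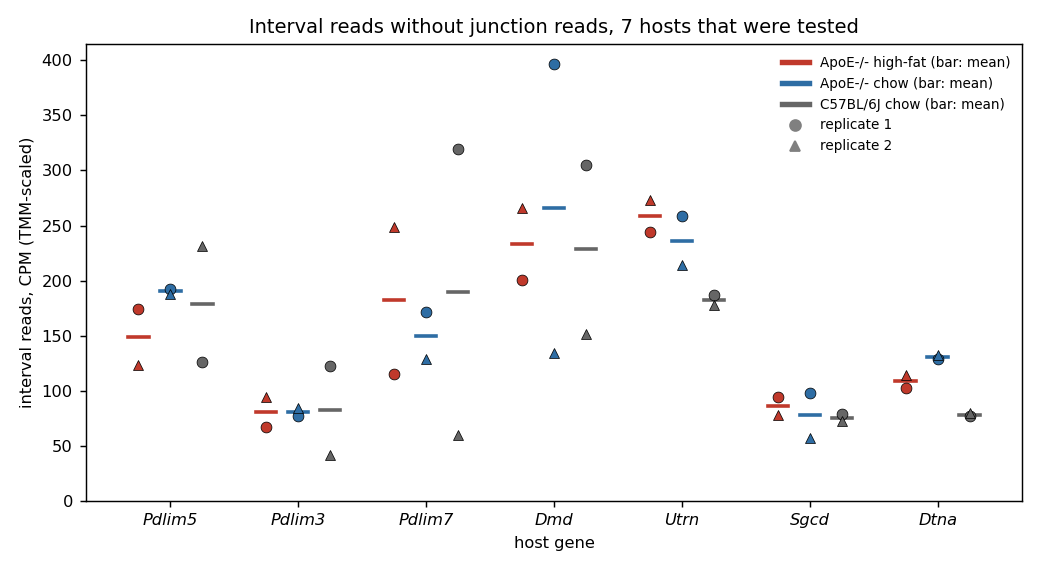
Interval reads (count minus junction) of the 7 tested hosts in CPM after TMM scaling, 1 point per library with a bar at the mean of each group of 2. High-fat stands left of ApoE-/- chow and C57BL/6J chow within each gene. Dtna libraries fall into 3 tight pairs, at 102 and 115 CPM in ApoE-/- high-fat, 129 and 133 CPM in ApoE-/- chow, and 76.8 and 79.7 CPM in C57BL/6J chow, while Pdlim7 runs between 60.0 and 320 CPM within C57BL/6J chow. For each pair of groups, 12.3% to 15.9% of hosts separated in the same direction as Dtna.

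**Figure D5:**
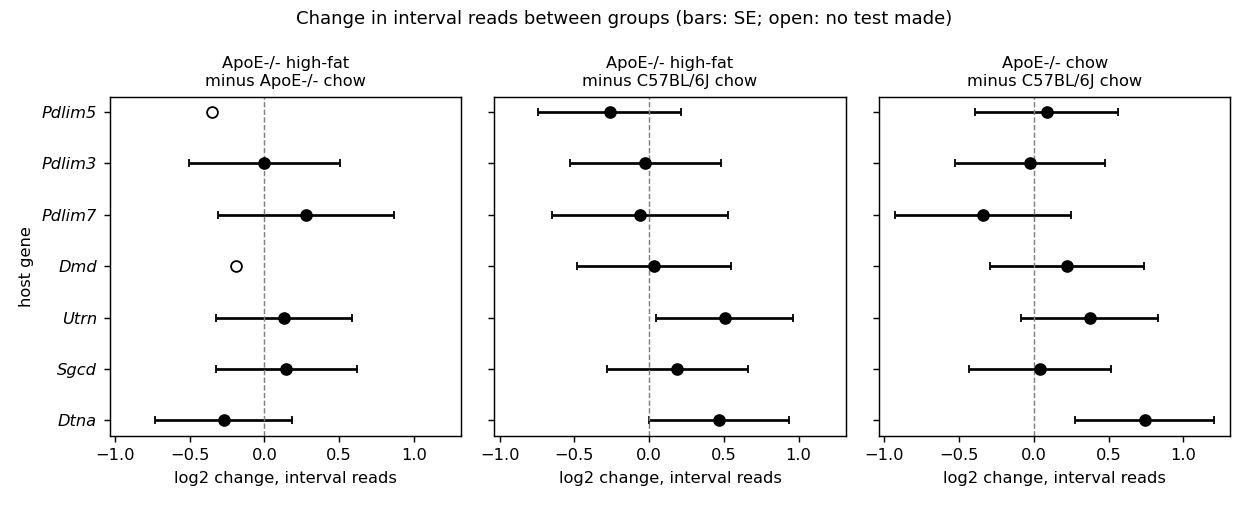
Log2 difference in interval reads for 7 hosts in the 3 pairwise comparisons. Bars are 1 SE, derived from the edgeR test, and open circles show where no test was made. The values lie between -0.35 and 0.74, most within 1 SE of 0.

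By junction reads, 12 of the 97 circRNAs had enough reads to be tested, and the other 85 did not. Leaving Pdlim5 and Dmd aside, 0 of 4 circRNAs passed between high-fat and ApoE-/- chow, where 0.0985% of the 1015 circRNAs did (1, edgeR). Against C57BL/6J chow, 0 of 12 passed in high-fat (0.0985%), with 2 at an unadjusted p under 0.05, the Pdlim5 and Dmd forms above. Both forms were picked with their high-fat reads seen, and this comparison reuses those reads, so their p-values are not independent of the choice. In ApoE-/- chow 0 of 12 passed (0%), with 0 at an unadjusted p under 0.05. Summed per host, 0 of 3 tested members passed between high-fat and ApoE-/- chow (0.0792% of 1262 hosts), and 0 of 5 against C57BL/6J chow in high-fat and in ApoE-/- chow (0% of hosts in both). Against both chow groups together, high-fat had 0 of 4 circRNAs (0.0985% of all) and 0 of 3 hosts past the threshold (0.158% of all). DESeq2 called 0 members in each of these.

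Other genes of the same structures were read from 2 lists. Of 45 Z-disc partners 24 were listed as hosts and 22 tested by interval reads, and 0 passed in any comparison. Between high-fat and ApoE-/- chow 15 were higher and 7 lower in value, with a median log2 of 0.14 against 0.03 over all hosts. Against C57BL/6J chow the split was 17 and 5 in both high-fat (median 0.26) and ApoE-/- chow (0.14), with -0.02 over all hosts in both. The 4 with the most reads were Flna (filamin A, an actin cross-linker), Lpp (a zyxin relative), Fhl1 (a LIM-only protein) and Actn1 (alpha-actinin of non-striated cells). Flna had 5021 and 6659 CPM in ApoE-/- high-fat, 5523 and 4321 CPM in ApoE-/- chow, and 6362 and 1183 CPM in C57BL/6J chow. C57BL/6J chow 2 lay lowest for Flna, Fhl1 and Actn1 and highest for Lpp.

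Of 49 dystrophin complex partners 30 were listed and 29 tested, and 0 passed in any comparison. Between high-fat and ApoE-/- chow 15 were higher and 14 lower (median log2 0.02). Against C57BL/6J chow 18 were higher and 11 lower in high-fat (median 0.10), and 20 higher and 9 lower in ApoE-/- chow (0.11). Hspg2 (perlecan, a basement membrane proteoglycan that dystroglycan binds) had 1111 and 2856 CPM in ApoE-/- high-fat, 1374 and 1473 CPM in ApoE-/- chow, and 1412 and 555 CPM in C57BL/6J chow. Plec (plectin, a linker of filaments) had 875 and 1833 CPM in ApoE-/- high-fat, 838 and 927 CPM in ApoE-/- chow, and 902 and 371 CPM in C57BL/6J chow. It differed by a log2 of 1.09 ± 0.51 between high-fat and C57BL/6J chow, which overlapped, and did not pass. Large, the enzyme that extends the laminin-binding sugar on dystroglycan, had 897 and 836 CPM in ApoE-/- high-fat, 912 and 900 CPM in ApoE-/- chow, and 556 and 1065 CPM in C57BL/6J chow. Lamb2 (laminin beta) was the fourth by level, with 318 and 682 CPM in ApoE-/- high-fat, 341 and 357 CPM in ApoE-/- chow, and 516 and 181 CPM in C57BL/6J chow.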

How the data were processed

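Total RNA of mouse aorta was sequenced after NEBNext Ultra library preparation, per the labels' protocols. The submitters' processing notes list TopHat and HTSeq, with no version; which program called back-splices is not given there or in the headers. Columns of count, RPM and junction reads were deposited for each library, per the file headers, on GRCm38 coordinates. The deposited count column and the deposited junction column hold whole-number counts. The deposited RPM column is the count scaled by the authors to the library's total, which was recovered from both columns. A circRNA absent from a library's table was taken as 0.

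Members and lists were chosen with earlier results of these data known. Count minus junction was summed per host. Host sums with 10 or more interval reads, and circRNAs or host sums with 5 or more junction reads, in at least 2 of 6 libraries entered edgeR's robust quasi-likelihood test with TMM scaling (edgeR 4.0.16 under R 4.3.3), all libraries in 1 fit with 3 residual degrees of freedom. Benjamini-Hochberg adjustment ran over all features, with a threshold of 0.05. An SE given with a log2 difference was derived from the test, as the size of the difference over the square root of its F value. DESeq2 1.42.0, other scalings, other minimums, a replicate block and leaving out each library were alternatives. The scripts were tested on simulated data.

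All 8 members were named; of their circRNAs, those with the most junction reads (up to 4 a gene) and those in 2 or more libraries that share an end with one of them; of each partner list, the 4 with the highest CPM. A circRNA outside this rule was named for its position or its high-fat reads after its values were seen. A fold against 0 uses a floor of 3 reads per library. Promoter sequences are RefSeq's for GRCm38.p6. No read sequence, exon position or genome sequence at the joins was used here. Deposited start and end were read as 1-based: of 86 acceptors that fall in promoter windows, 71 (82.6%) had AG just before them.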

Additional observations from a re-analysis of the deposited data

How the results depend on the processing

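Of the 153 alternative counts of called members, 152 stayed at 0. The exception was the leading Dmd circRNA by junction reads between high-fat and C57BL/6J chow without C57BL/6J chow 2. That fit leaves 1 library in its group and reuses the high-fat reads by which Dmd was picked. Of 247 alternative log2 values of interval reads, 216 kept their direction and none of the 247 passed; their adjusted p-values (edgeR or DESeq2) ran from 0.0514 to 1. For Pdlim3, whose difference between high-fat and ApoE-/- chow was near 0, the sign turned to -0.0082 with DESeq2 size factors, -0.0016 with library totals, -0.0078 with DESeq2 and -0.0019 with no minimum. Library totals, which moved the median of all hosts by 0.20 for high-fat and 0.17 for ApoE-/- chow against C57BL/6J chow, turned Pdlim3 to 0.21 in both and Pdlim7 in high-fat to 0.16. With the replicate number as a block, Pdlim3 turned to 0.0589 in high-fat and 0.0441 in ApoE-/- chow, and Pdlim7 in high-fat to 0.22, each against C57BL/6J chow; with 2 libraries a group the numbers are not known to pair samples (correlations of deviations from -0.14 to 0.12), and the block changed no call. Leaving out each library in turn gave ranges that crossed 0 for 12 of the 19 values. Between high-fat and ApoE-/- chow these were -0.26 to 0.19 (Pdlim3), -0.38 to 0.69 (Pdlim7) and -0.19 to 0.58 (Sgcd). Between high-fat and C57BL/6J chow they were -0.65 to 0.25 (Pdlim5), -0.61 to 0.92 (Pdlim3), -0.82 to 1.57 (Pdlim7) and -0.39 to 0.60 (Dmd). Between ApoE-/- chow and C57BL/6J chow they were -0.29 to 0.62 (Pdlim5), -0.58 to 0.93 (Pdlim3), -1.07 to 1.31 (Pdlim7), -0.76 to 0.80 (Dmd) and -0.39 to 0.38 (Sgcd). The members' junction share, high-fat over ApoE-/- chow with Pdlim5 and Dmd included, moved to 1.50 on the RPM scale. The causes were not tested.

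With 2 libraries a group, each feature had only 3 residual degrees of freedom. The edgeR p-values therefore lean on a spread shared over all features more than on a feature's own. Most member circRNAs lie below the tested minimum, and C57BL/6J chow 2, with 28 member junction reads, limits every comparison with its group. Batch and age cannot be told apart from diet or genotype here.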

Other observations

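The hosts whose interval reads ran most like those of Pdlim5 over the 6 libraries were Zfp934, fantom3_C230041O17 and Clca1, with Pearson correlations of log2(CPM + 1) of 0.994, 0.990 and 0.988. For Dmd they were Dkk3, Aplp2 and Sh3pxd2a, with 0.963, 0.951 and 0.947. Each was taken from 619 hosts with at least 100 interval reads in every library, and the 6 points share depth and library with both genes, so the values only describe.

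Of 10 macrophage markers 3 were listed as hosts, with summed interval reads of 4.62 and 4.20 RPM in ApoE-/- high-fat, 1.31 and 2.37 RPM in ApoE-/- chow, and 1.32 and 1.20 RPM in C57BL/6J chow libraries. By value, 2 of the 3 were higher and 1 lower in each comparison. The median log2 was 0.21 for high-fat against ApoE-/- chow and 0.41 against C57BL/6J chow, so the higher sums in high-fat mostly follow 1 gene, Gpnmb. Gpnmb, a glycoprotein of lipid-loaded macrophages, had 174 and 239 CPM in ApoE-/- high-fat, 31.1 and 85.8 CPM in ApoE-/- chow, and 18.0 and 27.1 CPM in C57BL/6J chow. It rose in high-fat against C57BL/6J chow by a log2 of 3.18 ± 0.56 (edgeR, adjusted p = 0.0184) and was the 1 host that passed there. Of 10 fibroblast markers 8 were listed, with sums of 90.2 and 84.1 RPM in high-fat, 62.5 and 59.5 RPM in ApoE-/- chow, and 62.1 and 38.9 RPM in C57BL/6J chow. The sums of 7 endothelial markers of 10 ran from 11.7 to 18.4 RPM, those of 8 adipocyte markers of 10 from 8.33 to 28.1 RPM, and those of 2 Schwann markers of 8 from 5.28 to 9.40 RPM over the 6 libraries. The part of these cells in the members' values was not tested.

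Member circRNAs took their interval reads from longer intervals than circRNAs at large. Those spanning under 1 kb held 21.0% and 26.7% of member interval reads in ApoE-/- high-fat, 20.6% and 20.4% in ApoE-/- chow, and 30.9% and 17.6% in C57BL/6J chow libraries. Over all circRNAs the same class held 67.7% and 71.3% in high-fat, 67.5% and 58.2% in ApoE-/- chow, and 77.8% and 41.3% in C57BL/6J chow. C57BL/6J chow 2 was lowest in both.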
